A study of Mus musculus with 18 samples.

Results

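The cytosolic ribosomal protein genes are the Rpl and Rps genes, which encode the protein parts of the large and the small subunit of the ribosome outside mitochondria. Members were taken by symbol: Rpl or Rps followed by a number and at most 1 letter, plus Rpsa, Rplp0, Rplp1 and Rplp2, without pseudogene names or S6 kinases, and with at least 100 counts summed over all livers. Of 24394 usable gene rows 81 matched these names and 74 reached the minimum, 43 of the large and 31 of the small subunit. Of the small-subunit members, Rps4l is annotated in RefSeq as a transcribed pseudogene and was kept because its symbol matches. RNA from 18 mouse livers was measured by 3′ tag sequencing, which gives about 1 read per transcript end, so that counts do not grow with transcript length. The tumour-bearing Stat3-deleted group (genotype Alb-Cre+/+ STAT3f/f) holds 6 livers, and its Cre is driven by the albumin promoter and so acts in hepatocytes. Stat3 in the other liver cells was not measured separately. The tumour-bearing WT group and the control WT group hold 6 livers each, and no group holds Stat3-deleted livers without a tumour. The tumour is PDA.69, a pancreatic ductal adenocarcinoma line derived from KPC mice, and the labels list that line for the control livers as well. The sources used here do not give age, sex, site of the tumour or time of sampling.

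Each ribosome carries 1 copy of nearly every ribosomal protein, so the members are made in matched amounts, and free copies are broken down. The acidic stalk proteins of Rplp1 and Rplp2, which sit on that of Rplp0, are the exception in copy number and recruit the elongation factors. Ribosomal protein mRNAs begin with a cytosine and a run of pyrimidines, the 5′ terminal oligopyrimidine (TOP) motif, through which mTORC1 and the RNA-binding protein LARP1 set their translation. In liver, ribosomes make the plasma proteins, and ribosome content is known to follow feeding and growth. An mRNA level is therefore 1 of several layers that set ribosome production, and the translational layer was not measured here.

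Libraries held 7222882 to 9545442 counts for Stat3-deleted, 6168658 to 8850200 for tumour-bearing WT and 5212265 to 7159148 for control livers. Summed hepatocyte markers ran from 93344 to 109078 CPM (counts scaled by library size with TMM factors, as elsewhere here) in Stat3-deleted, 59138 to 125999 CPM in tumour-bearing WT and 55661 to 84519 CPM in control livers. Stat3 averaged 118 ± 12.8 CPM in Stat3-deleted, 213 ± 38.3 CPM in tumour-bearing WT and 112 ± 19.1 CPM in control livers (SD, n = 6 each), so the targeted gene was detected in every Stat3-deleted liver. The sources used here do not say which exons the floxed allele loses, so the tag at the transcript end cannot serve as a check of the deletion. The 4 haemoglobin rows Hba-a1, Hba-a2, Hbb-bs and Hbb-bt were at 0 counts in all livers although blood is rich in their RNA, and these genes come in near-identical pairs.

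To show the TOP motif, 30-base windows around the annotated start sites were read from RefSeq (GRCm38.p6, the assembly of mm10), each with 20 bases before and 10 bases from the start on, in the direction of transcription. Of the 74 members 54 had a promoter entry. Capitals mark a run of at least 5 pyrimidines, counted from a C within 5 bases of the start, that may continue past the window. Pyrimidines directly before that C stay in lower case, as in Rps26, Rplp2, Rpl14, Rps15a and Rpl35. In Rpl14 and Rpl35 the whole stretch of pyrimidines begins more than 5 bases before the start. The first 8 are members with such a run: Rps26 (chr10:128626497-128626526, minus strand), Rplp2 (chr7:141447631-141447660, plus), Rpl14 (chr9:120571497-120571526, plus), Rps15a (chr7:118116138-118116167, minus), Rps10 (chr17:27635235-27635264, minus), Rpl13a (chr7:45128736-45128765, minus), Rpl35 (chr2:39005122-39005151, minus) and Rps6 (chr4:86857358-86857387, minus). The last 4 are members among those with the smallest p-values whose annotated start lacks one: Rpl37 (chr15:5116593-5116622, plus), Rplp0 (chr5:115559447-115559476, plus), Rpl41 (chr10:128549159-128549188, minus) and Rps28 (chr17:33824553-33824582, minus).
Rps26: agcgggtcgggcaagccgccggatCCTCTT
Rplp2: cccactgcgtcagcgtCTTCCTTTCgccgc
Rpl14: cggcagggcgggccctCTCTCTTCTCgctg
Rps15a: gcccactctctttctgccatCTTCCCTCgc
Rps10: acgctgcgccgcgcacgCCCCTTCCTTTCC
Rpl13a: gataagaaaccctgcgacaagaCCTCCTCC
Rpl35: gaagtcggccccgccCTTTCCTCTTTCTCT
Rps6: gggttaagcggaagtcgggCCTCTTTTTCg
Rpl37: gaagtagtttcctgggcggaagcttatcca
Rplp0: acgtcgtcttcgggtttcgaggaccgcctg
Rpl41: gacgacacacgggccggctcggaagtgacg
Rps28: tcctgggtaccgcgtgcggtctcgcgagag

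A run of at least 5 pyrimidines, counted from such a C, was found at 25 of the 54 members (46.3%), at 15 of 69 mitochondrial ribosomal protein genes (21.7%) and at 18.5% of 27025 mouse promoters. A longer run, of at least 8, was found at 17 members (31.5%), at 2 mitochondrial ribosomal protein genes (2.9%) and at 4.38% of all promoters. An annotated start a few bases off moves the run out of the search, so a missing run says nothing about the mRNA itself. Within 250 bases before and 50 after the start, on either strand, the ETS core CCGGAA was present at 27 members (50%), against 15.2% of all promoters, and was as common among mitochondrial ribosomal protein genes (56.5%). The YY1 core ATGGCG was present at 24.1% of members, 27.5% of mitochondrial ribosomal protein genes and 9.24% of promoters, and the SP1 core GGGCGG at 61.1%, 49.3% and 35.9%. CCAAT (35.2% and 37.9%), the TATA core TATAAA (9.26% and 14.2%) and the E-box CACGTG (7.41% and 7.24%) differed less between members and promoters.

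The members were abundant, and their tag levels differed widely although their proteins are needed in equal numbers. All 74 passed the filter on low counts, and 73 lay above the median tested gene, which had a mean of 14.1 CPM, while the median member had 265.7 CPM. Rps14, a protein of the small subunit's platform, was the highest at 1634 CPM, followed by Rplp1 (1133 CPM), Rpl37 (1075 CPM), Rpl13a (1002 CPM) and Rps12 (973 CPM). The lowest were Rpl19 (28.4 CPM), Rpl35 (23.3 CPM), Rps6 (18.9 CPM), the substrate of the S6 kinases, Rpl10a (17.6 CPM) and Rpl15 (11.8 CPM). The highest mean was 138.6 times the lowest. The 10 most abundant members held 38.4% of the 3512955 member counts and the 10 least abundant 1.24%, and the 10 most abundant members were the same genes in all 3 groups. The large subunit held 50.6% of the member counts, and the ratio of the large to the small subunit's summed CPM averaged 1.02 ± 0.0172 in Stat3-deleted, 1.02 ± 0.0411 in tumour-bearing WT and 1.03 ± 0.0172 in control livers (SD, n = 6 each).

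**Figure D1:**
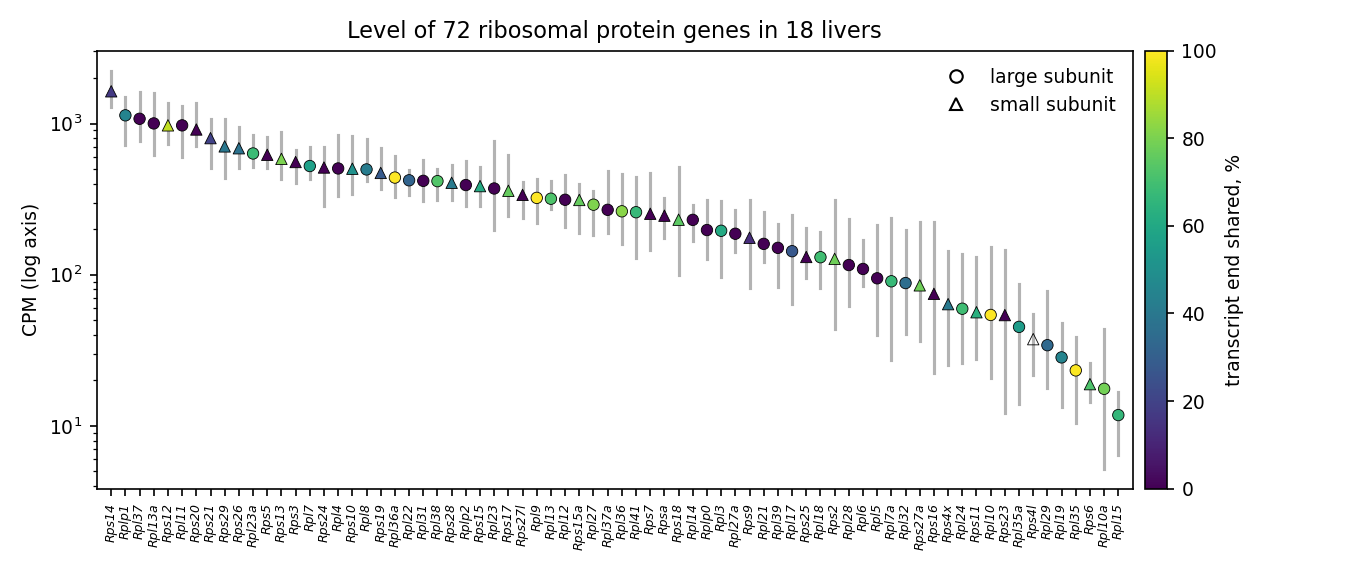
Mean CPM of 72 of the members over 18 livers on a log axis, with a grey line from the lowest to the highest liver, circles for the large and triangles for the small subunit, and colour for the share of the transcript end that another gene's transcript also contains (white where no transcript was matched, Rps4l). Levels run from 1634 CPM for Rps14 to 11.8 CPM for Rpl15, and several of the lowest members have wide lines and largely shared ends.

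The counts of individual members were read beside how unique their transcript ends are, since reads that match several places may be lost or moved, and the sources used here do not say how the authors treated such reads. In GENCODE vM21 transcripts, 45 of the 73 members with a matched transcript (61.6%) shared at least 1 stretch of 50 bases in their last 200 bases with a transcript of another gene, mostly pseudogenes, against 4.81% of 10509 other tested genes. Among the 12 members with under 10000 counts this held for 11 (91.7%), among the 32 with 10000 to 50000 counts for 16 (50%), and among the 29 with 50000 or more for 18 (62.1%). For Rpl35 99.3% of the stretches were shared, for Rps6 72.2% and for Rpl15 66.2%, whereas Rps12, among the 5 highest members, shared 90.7%. The level of a single member is uncertain where its end is shared.

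The 7 rows under the minimum included genes that every ribosome needs. Rpl26 had 0 counts over all 18 livers, Rpl30 had 1, Rps27 had 1 and Rpl34 had 9, against 1589 for the lowest member, Rpl15. The end of Rps27 was shared throughout (100%) and is also carried by Rps27rt, a row with 0 counts. Rpl30 shared 70.2% of its stretches with 16 other genes, Rpl26 67.5% with 8 and Rpl34 46.4% with 4. The other 3 rows are paralogues of restricted expression, the testis form Rpl10l (0 counts), Rpl39l (17) and the muscle form Rpl3l (17). Of the paralogues with more counts, Rps27l, whose end is not shared, averaged 337.4 CPM over all livers, Rpl22l1 57.9 CPM beside 421.3 CPM for Rpl22, Rpl7l1 68.7 CPM beside 523.5 CPM for Rpl7, and Rpl36al 26.4 CPM beside 439.1 CPM for Rpl36a.

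Together the members took a similar share of the RNA in the 3 groups. Their share of all counts was 2.23 to 3.01% (median 2.64%) in Stat3-deleted, 2.3 to 2.93% (median 2.66%) in tumour-bearing WT and 2.2 to 2.78% (median 2.51%) in control livers. The groups overlap, and the exact 95% binomial interval of each liver is narrow beside the spread between livers, 2.22 to 2.24% for the lowest Stat3-deleted liver; such intervals cover counting error only. Group means were 2.62% ± 0.252 in Stat3-deleted, 2.6% ± 0.232 in tumour-bearing WT and 2.49% ± 0.274 in control livers (SD, n = 6 each). The serum amyloid genes Saa1 and Saa2 took 0.87 to 7.78% of the counts in tumour-bearing WT livers, and without both the share was 2.62% in Stat3-deleted, 2.68% in tumour-bearing WT and 2.49% in control livers.

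After TMM scaling, which corrects for such dominant genes, summed levels were 26536 ± 3020 CPM in Stat3-deleted, 27981 ± 4561 CPM in tumour-bearing WT and 23112 ± 2116 CPM in control livers (SD, n = 6 each). The highest liver was replicate 6 of the tumour-bearing WT group at 35120 CPM, whose TMM factor of 0.75 was the lowest of all libraries, while the control group's factors were 1.022 to 1.114. As a share of all counts that liver was not the highest, at 2.63% beside its group's median of 2.66%. In bulk tissue, fewer cells of a type and less RNA per cell cannot be told apart.

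**Figure D2:**
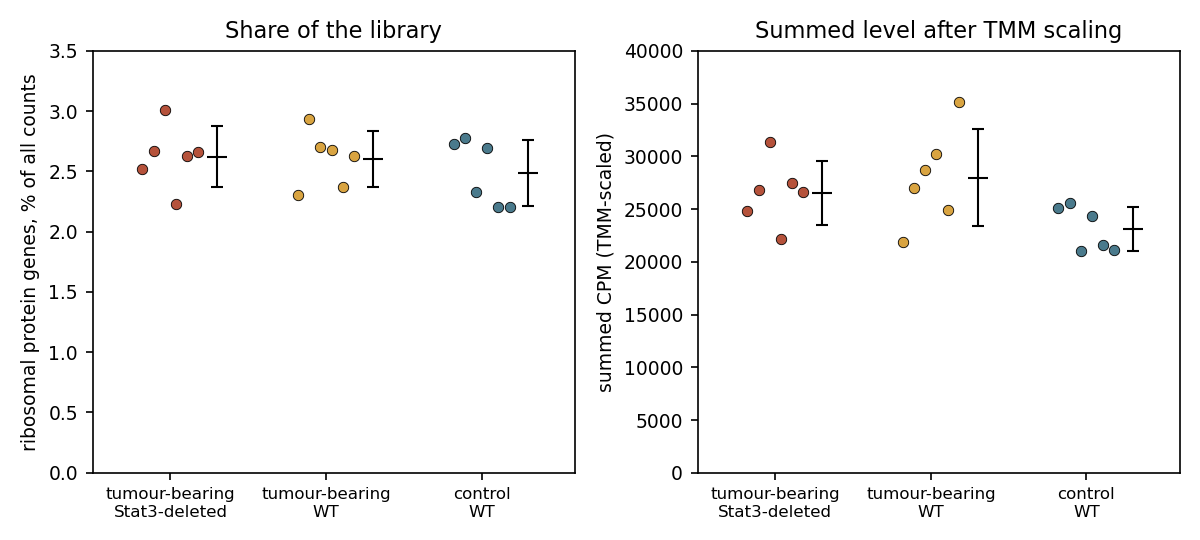
Members summed in each of 18 livers, as a percentage of all counts (left) and as TMM-scaled CPM (right); points are livers, and the bars beside them give mean ± SD for n = 6 per group. Shares average 2.62%, 2.6% and 2.49%, and the scaled sums put tumour-bearing WT replicate 6 at 35120 CPM, above every other liver. Its share of all counts, 2.63%, is not the highest.

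The first comparison asks what the tumour goes along with in the WT liver. Members were mostly higher in tumour-bearing WT than in control livers, by a small amount, but no single member passed the test. With edgeR's quasi-likelihood test and Benjamini-Hochberg adjustment over 11218 genes, 0 of 74 members passed at an adjusted p of 0.05, against 2.25% of all tested genes (1.76% higher and 0.49% lower). With DESeq2 or limma voom, the latter run with quality weights here and below, 0 passed. The smallest adjusted p was 0.167. The log2 fold change was positive for 69 of 74 members (93.2%, against 50.6% of all genes), and the members' median was 0.30, with 0.30 for the large and 0.31 for the small subunit, against 0.004 over all genes. At an unadjusted p under 0.05 there were 17 members higher (23%, against 8.63% of all genes) and 0 lower (against 7.56%). Of these, 8 were among the 43 of the large and 9 among the 31 of the small subunit. That count is 0 by library totals or scaled to the members' sum, 8 with limma voom, 10 with the run of label numbers as a block, 6 without tumour-bearing WT replicate 6, 32 without tumour-bearing WT replicate 1, 9 without control replicate 3, and 11 without control replicate 6 or Stat3-deleted replicate 2. For 0 members did the groups separate fully, against 1.05% of all genes for full separation upward. Members share the livers, so counts of members are not independent. The median SE was 0.16 for members and 0.22 for all genes in each comparison, so the all-gene shares are not a like background.

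Among the members with the smallest p-values, Rplp0, the base of the stalk and a common reference gene in PCR, ran from 127.6 over 224.5 (median) to 314.2 CPM in tumour-bearing WT and from 139.2 over 166.2 to 175.0 CPM in control livers. Its lowest tumour-bearing liver lay below every control liver and 4 lay above them all, and the log2 fold change was 0.43 (SE 0.16, edgeR adjusted p = 0.167). Rps13, a small-subunit protein, had 444.5, 657 and 874.1 CPM (lowest, median, highest) in tumour-bearing WT and 426.7, 504.1 and 531 CPM in control livers, and the difference was 0.41 on the log2 scale (SE 0.15, edgeR adjusted p = 0.167). In 5 of 6 tumour-bearing livers the level was above that of every control liver. Rpl36a, which contacts the tRNA at the exit site, had 407.6, 533.4 and 611 CPM against 324.9, 396.6 and 471.9 CPM in control livers, with all 6 tumour-bearing livers above the control mean (log2 fold change 0.36, SE 0.13). The others of the first 10 were Rps15a (0.36), Rps10 (0.46), Rps12 (0.37), Rpl13a (0.49), Rpl37 (0.40), Rps7 (0.47) and Rpl10a (0.75), which has few counts. The largest log2 fold change, 0.84 (SE 0.40) for Rps16, came with a range of 33.7 to 224.6 CPM in tumour-bearing WT livers.

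The 5S particle genes Rpl5 and Rpl11, whose free proteins bind Mdm2, had log2 fold changes of 0.49 (SE 0.28) and 0.30 (SE 0.16). The ubiquitin fusion Rps27a had 0.53 (SE 0.40), Rplp1 0.32 (SE 0.17), Rplp2 0.22 (SE 0.15), Rps6 0.30 (SE 0.15), Rpl41 0.46 (SE 0.23) and the laminin receptor gene Rpsa 0.05 (SE 0.15), none past the test. Of the members below 0, Rpl35 was the lowest at a log2 fold change of -0.46 (SE 0.31), with 10.5, 18.2 and 36.4 CPM in tumour-bearing WT and 23.5, 27.7 and 38.6 CPM in control livers.

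The size of the members' shift depends on scale and on 1 liver. Scaled by library totals alone, the members' median was 0.09 with 50 members positive and that of all genes was -0.19, a gap of 0.28 in place of 0.30, and all-gene calls were 116 higher and 177 lower in place of 197 and 55; scaled to the members' own sum the median was 0.02 with 42 positive and calls were 78 and 86. With limma voom the median was 0.20. Without tumour-bearing WT replicate 6 the median was 0.14 with 60 members positive, without replicate 1 it was 0.38, and Rplp0 and Rps13 passed. Within the lower run of label numbers (replicates 1 to 3 of both WT groups) the median was 0.12 and within the higher run (replicates 4 to 6) 0.49, with no member called in either. Neutrophil markers summed to 69 to 348.2 CPM in tumour-bearing WT and 20.6 to 51.2 CPM in control livers, with 10 of 11 listed genes in the table, none at 0 throughout, and 4 of the 4 tested called higher. Kupffer cell markers, all 10 measured, summed to 746 to 1809 CPM in tumour-bearing WT and 431.8 to 1100 CPM in control livers, with 1 of 10 called higher. Monocyte or macrophage markers had 1 of 10 called higher (summed 153.3 to 371.8 CPM against 83.2 to 228.8 CPM) and biliary or ductal markers 1 of 5 (47.5 to 159.1 CPM against 34.1 to 59.5 CPM). The part of these cells in the members' levels was not tested.

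**Figure D3:**
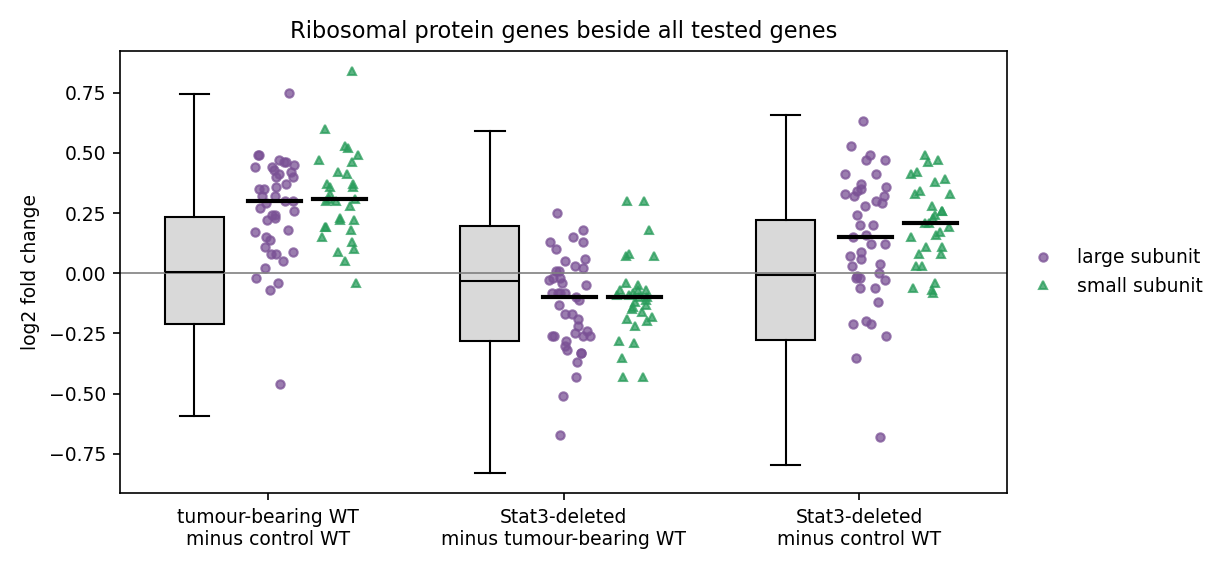
Log2 fold changes of the 74 members (points, circles for large and triangles for small subunit, black bars for medians) in the 3 comparisons beside all 11218 tested genes (grey boxes, quartiles with whiskers from the 5th to the 95th percentile). Members lie above 0 for the most part in tumour-bearing WT minus control (medians 0.30 and 0.31) and a little below 0 in Stat3-deleted minus tumour-bearing WT.

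The second comparison asks what loss of hepatocyte Stat3 goes along with in tumour-bearing mice. Here the members differed little: 0 of 74 passed edgeR's test, against 6.12% of all tested genes (2.89% higher and 3.23% lower), the smallest adjusted p being 0.0993. With DESeq2 0 passed, and with limma voom 1. The log2 fold change was positive for 18 members (24.3%, against 45.9% of all genes), and the median was -0.10, in both subunits, against -0.034 over all genes. At an unadjusted p under 0.05 there were 2 members higher (2.7%, against 8.7% of all genes) and 3 lower (4.05%, against 10.7%). With 1 library left out these counts were 0 to 3 higher and 2 to 9 lower, the most without tumour-bearing WT replicate 5. The groups separated fully for 0 members in either direction, against 1.4% of all genes upward and 1.9% downward.

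The member nearest to the threshold was Rpl41, which encodes the smallest ribosomal protein. It ran from 128.5 over 212 to 277.9 CPM in Stat3-deleted and from 198.4 over 359.8 to 444.8 CPM in tumour-bearing WT livers, with all 6 Stat3-deleted livers below the tumour-bearing WT mean (log2 fold change -0.67, SE 0.23, edgeR adjusted p = 0.0993). Control livers had 159.9, 225.5 and 381.6 CPM. Rpl36a had 327.4, 413.1 and 453.6 CPM in Stat3-deleted livers, against the tumour-bearing WT values above, and all 6 lay below their mean (log2 fold change -0.33, SE 0.13, adjusted p = 0.156). Rpl14 had a log2 fold change of -0.28 (SE 0.13), Rpl27a -0.30 (SE 0.15), Rps10 -0.35 (SE 0.17), Rpl13a -0.37 (SE 0.19), Rpl39 -0.43 (SE 0.22), Rps9 -0.43 (SE 0.23) and Rpl5 -0.51 (SE 0.28). On the other side, Rps28 had 378.5, 484.1 and 528.1 CPM in Stat3-deleted and 314.1, 375.4 and 489.6 CPM in tumour-bearing WT livers (0.30, SE 0.13, adjusted p = 0.192), and Rps26 had the same difference (0.30, SE 0.14).

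Without tumour-bearing WT replicate 6 the median turned to 0.01 with 38 members positive, and it was -0.02 by library totals, -0.03 with limma voom (32 positive) and -0.03 without Stat3-deleted replicate 4 (29 positive), so no direction is given for the family in this comparison; all-gene calls were 424 higher and 270 lower by library totals, against 324 and 362 as tested. Rpl41 passed without tumour-bearing WT replicate 5 (log2 fold change -0.78, adjusted p = 0.0414), and Rps28 passed with limma voom (adjusted p = 0.0478). All Stat3-deleted livers carry their own run of label numbers, so genotype and run cannot be told apart. Neutrophil markers summed to 37.5 to 104.2 CPM in Stat3-deleted and 69 to 348.2 CPM in tumour-bearing WT livers, with 3 of 4 tested called lower. B or plasma cell markers had 2 of 3 called lower (summed 3.26 to 9.65 CPM against 10.6 to 44.2 CPM), biliary or ductal markers 2 of 5 (31.5 to 53 CPM against 47.5 to 159.1 CPM) and monocyte or macrophage markers 1 of 10, while hepatocyte markers had 1 of 8 called higher. Their part was not tested.

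The third comparison sets Stat3-deleted livers against control livers and shares its groups with the other 2. Tumour, genotype and run of label numbers all differ between these groups and cannot be told apart. Of the members 1 rose, Rps26, a small-subunit protein at the mRNA exit that is mutated in the inherited anaemia named after Diamond and Blackfan in humans. It ran from 747.8 over 803.4 to 946.7 CPM in Stat3-deleted and from 509.6 over 551.7 to 700.1 CPM in control livers, so that every Stat3-deleted liver lay above every control liver. Tumour-bearing WT livers, at 511.8, 663.7 and 798.2 CPM, overlap both. Its log2 fold change of 0.49 had an SE of 0.14 and an adjusted p of 0.0407 in edgeR's test. That is 1 of 74 members, against 4.85% of all tested genes in either direction and 2.19% higher.

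Further members lay just outside. Rpl37 had 1039, 1165 and 1617 CPM in Stat3-deleted and 761.6, 840.9 and 995.9 CPM in control livers, also without overlap (log2 fold change 0.53, SE 0.16, adjusted p = 0.0521). Rps28 (0.39, SE 0.13, adjusted p = 0.0745), Rps29 (0.46, SE 0.15, adjusted p = 0.0813) and Rpl23a at the peptide exit tunnel (0.34, SE 0.12, adjusted p = 0.109) were among those that followed. The 3 stalk genes were alike, with Rplp1 at 0.47 (SE 0.17), Rplp0 at 0.41 (SE 0.16) and Rplp2 at 0.35 (SE 0.15). Rplp0 was even in this group, 197.4 to 232.7 CPM in Stat3-deleted and 139.2 to 175.0 CPM in control livers, without overlap. In all, 7 members did not overlap between the groups in the upward direction (9.46%, against 1.98% of all genes), namely Rps26, Rpl37, Rpl23a, Rplp0, Rplp2, Rpl13 and Rpl27, and 0 downward, against 1.84%. This was read on TMM-scaled CPM only, where a larger factor lowers a liver's CPM. Factors were 0.956 to 1.018 in Stat3-deleted and 1.022 to 1.114 in control livers. Overlap by library totals was not counted, so the share of members without overlap holds for this scale alone. The log2 fold change was positive for 57 members (77%, against 49.1% of all genes), with a median of 0.19, 0.15 for the large and 0.21 for the small subunit, against -0.009 over all genes. At an unadjusted p under 0.05, 13 members were higher (17.6%, against 9.35%) and 1 lower (1.35%, against 11.5%), Rpl35 at -0.68 (SE 0.31, adjusted p = 0.202). These counts were 7 higher and 3 lower by library totals, 2 and 5 scaled to the members' sum, and 8 and 1 without control replicate 3 or without Stat3-deleted replicate 3. Rpl35 had 11.3, 15.2 and 38.7 CPM in Stat3-deleted and 23.5, 27.7 and 38.6 CPM in control livers, with 5 of 6 Stat3-deleted livers below the control mean.

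The call of Rps26 is marginal. It was lost by library totals (adjusted p = 0.0905, 0.37), scaled to the members' sum (0.273, 0.29) and without a low-count filter (0.0628), and without control replicate 1, 3, 4 or 5 or Stat3-deleted replicate 1, 2, 3, 5 or 6 (adjusted p of 0.0534 to 0.102, log2 fold change 0.44 to 0.51). Scaling to the members' sum takes out any shift that the family shares, so the value there is that of Rps26 beside its family. Calls were 7 when the groups were fitted alone, 6 with DESeq2, 10 with limma voom (9 higher and Rpl35 lower), 5 without tumour-bearing WT replicate 6, 5 without Stat3-deleted replicate 4 (4 higher and Rpl35 lower) and 2 without tumour-bearing WT replicate 1, Rps26 and Rpl37. By library totals the members' median was 0.07 with 43 members positive and that of all genes was -0.13, with 139 genes higher and 372 lower in place of 246 and 298; scaled to the members' sum the median was 0 with 36 positive and calls were 89 and 367. Kupffer cell markers summed to 755 to 1957 CPM in Stat3-deleted and 431.8 to 1100 CPM in control livers, with 3 of 10 called higher. Endothelial markers had 2 of 7 called higher (summed 280.3 to 395.5 CPM against 211.9 to 281 CPM), monocyte or macrophage markers 1 of 10 (148.2 to 439.6 CPM against 83.2 to 228.8 CPM), and B or plasma cell markers 2 of 3 lower (3.26 to 9.65 CPM against 4.8 to 49.6 CPM). Of 8 hepatocyte markers Ttr was called higher and Apob lower. Their part was not tested.

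**Figure D4:**
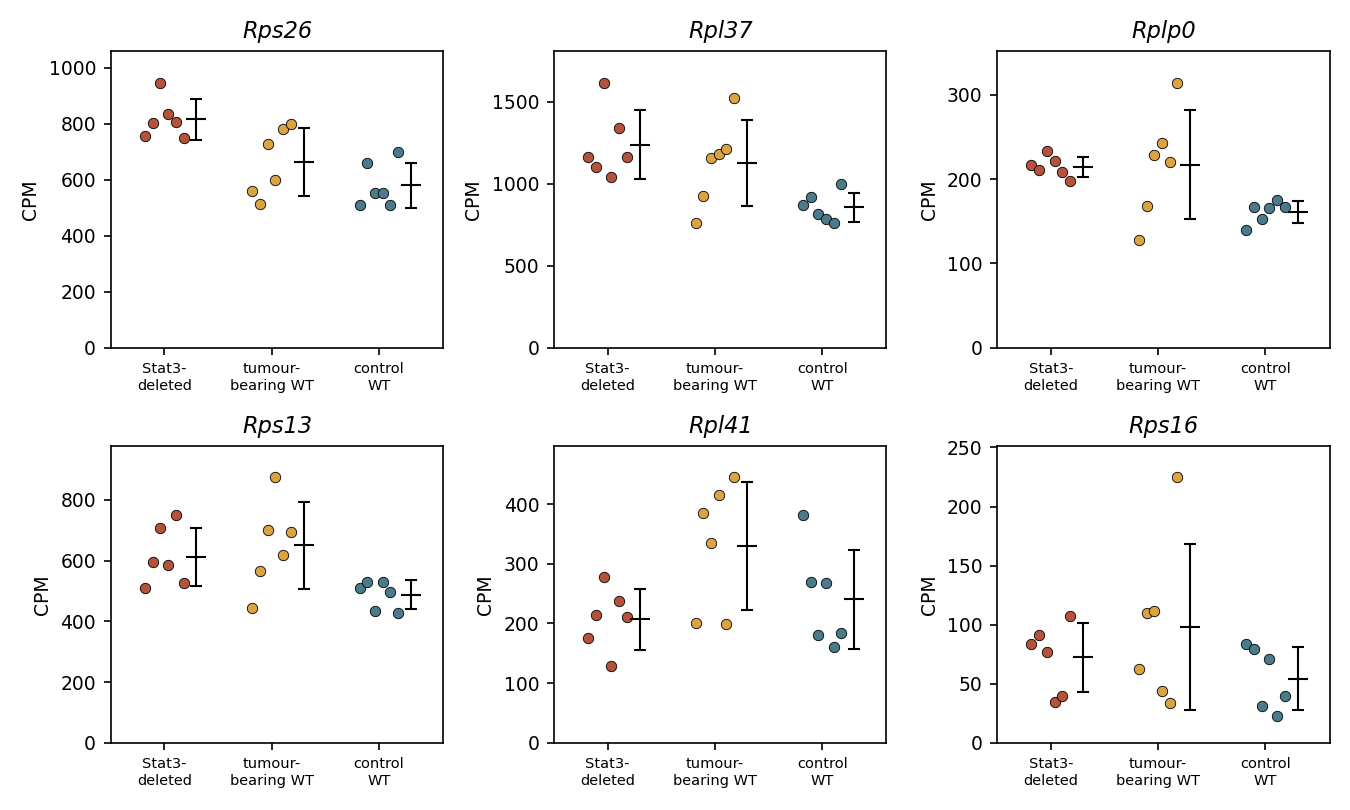
CPM of 6 members in every liver, with mean ± SD for n = 6 beside the points: Rps26, Rpl37 and Rplp0, whose Stat3-deleted livers all lie above the control livers, Rps13 and Rpl41, and Rps16 with its wide spread. For Rpl41 the Stat3-deleted livers reach 277.9 CPM and the tumour-bearing WT livers 444.8 CPM.

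Genes around the ribosome were read from fixed lists, chosen with earlier results of these data known. The list of ribosomal proteins outside the name pattern, which does not hold every such gene, had 0 of 6 genes called by edgeR in each comparison. In each, 1 had an unadjusted p under 0.05. Over all tested genes edgeR called 2.25%, 6.12% and 4.85% in the 3 comparisons, and 16.2%, 19.4% and 20.8% had an unadjusted p under 0.05. Among the 6 listed, Gnb2l1, the scaffold RACK1, had 565.8 ± 45.3 CPM in Stat3-deleted, 694.7 ± 119.9 CPM in tumour-bearing WT and 562.7 ± 72.7 CPM in control livers (SD, n = 6 each). Rps3a1, a small-subunit gene, is in neither the members nor this list and was added after its values were seen. Its log2 fold changes were 0.56, -0.26 and 0.31 in the 3 comparisons (SE 0.26 in each). The first had an unadjusted p of 0.0408 in edgeR's test, and none passed after adjustment. The elongation factors (8 tested) and other TOP mRNAs (17 tested) had 0 called in each comparison, with at most 2 elongation factors and 4 TOP genes at an unadjusted p under 0.05 in any of them, and medians of 0.13 and 0.14 in tumour-bearing WT minus control. Mitochondrial ribosomal protein genes, 73 tested, had medians of -0.02, -0.01 and 0.02 in the 3 comparisons, beside 0.30, -0.10 and 0.19 for the cytosolic members. Of these 73, edgeR called 0, 1 and 1, beside 2.25%, 6.12% and 4.85% of all genes. The 1 called was Mrpl2 both times, higher in Stat3-deleted livers, with 68.3 ± 4.82 CPM against 50 ± 5.58 CPM in tumour-bearing WT (log2 fold change 0.45, SE 0.12, edgeR adjusted p = 0.0201) and 51.6 ± 5.99 CPM in control livers (0.40, adjusted p = 0.0454).

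Of the factors that build or regulate ribosomes, 0 to 3 per list and comparison were called, shares that are read beside those of all genes. Of 33 initiation factors 1 rose in tumour-bearing WT livers, Eif6, which keeps the large subunit from joining the small one, with 99.9 ± 25.3 CPM against 67.6 ± 7.26 CPM in control livers (log2 fold change 0.56, SE 0.15, edgeR adjusted p = 0.046), where 2.25% of all genes were called. Of 44 ribosome biogenesis factors 3 changed in Stat3-deleted against tumour-bearing WT livers, near the 6.12% of all genes. Heatr1, needed for pre-rRNA transcription and processing, fell to 15.3 ± 3.64 CPM in Stat3-deleted livers, against 29.8 ± 6.99 CPM (log2 fold change -0.97, SE 0.19, adjusted p = 0.00251). Mrto4, a large-subunit assembly factor, fell (34.2 ± 5.93 CPM against 50.7 ± 15.1 CPM, adjusted p = 0.0432), and Imp4 of the small-subunit processome rose (37.2 ± 2.89 CPM against 26.5 ± 4.51 CPM, adjusted p = 0.0355). Ubtf, which opens rDNA for RNA polymerase I, fell, with 20.4 ± 4.12 CPM against 29.2 ± 5.15 CPM (-0.52, adjusted p = 0.0476), as 1 of 11 tested genes of the RNA polymerase I list, also beside 6.12%. Against control livers, Stat3-deleted livers had lower Rps6kb1, the kinase of ribosomal protein S6 (43.7 ± 6.7 CPM against 64.1 ± 7.59 CPM, -0.55, adjusted p = 0.0296), and lower Sesn3, an inhibitor of mTORC1 (3.17 ± 1.08 CPM against 7.48 ± 2.2 CPM, -1.24, adjusted p = 0.0271), 2 of 17 tested, beside 4.85% of all genes. The MYC network had 0 of 8 called by edgeR in each comparison, with 1, 1 and 3 at an unadjusted p under 0.05, beside 16.2%, 19.4% and 20.8% of all genes.

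Livers of 1 group differed from each other in some members far more than the groups did, and the members that varied most did so together. Over 18 livers the coefficient of variation reached 67.1% for Rps23, a protein of the decoding centre, and had a median of 22.8%, close to 23% for 6491 other tested genes of at least 10 CPM. After Rps23 came Rps16 (63.4%), Rpl10 (60.7%), Rpl7a (59.4%), Rps2 (58.4%) and Rps27a (57.9%), and among the narrowest were Rpl7 (11.3%), Rpl38 (11.5%) and Rpl22 (11.7%). Rps23 had 17.4 to 107.1 CPM in Stat3-deleted, 12.2 to 145 CPM in tumour-bearing WT and 16.2 to 75.9 CPM in control livers, whereas Rpl7 stayed within 484 to 586.4 CPM, 427.2 to 694.2 CPM and 444.3 to 575.2 CPM in the same order of groups. Within the tumour-bearing WT group the highest liver had 11.9 times the Rps23 level of the lowest, and for Rpl7 it was 1.62 times.

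The 10 most variable members summed to 322.1 to 1280 CPM in Stat3-deleted, 355.3 to 1789 CPM in tumour-bearing WT and 320.3 to 976.4 CPM in control livers. They were low in Stat3-deleted replicates 4 and 5 (322.1 and 364.9 CPM), tumour-bearing WT replicates 4 and 5 (368.5 and 355.3 CPM) and control replicates 3, 5 and 6, and highest in replicate 6 of both tumour-bearing groups. The 10 least variable members summed to 3742 to 4724 CPM, 3876 to 4734 CPM and 3703 to 4190 CPM. A singular value decomposition of the members' log2 CPM, centred per gene, put 65.7% of the spread between livers on 1 component and 16.4% on the next. The most variable members were less abundant (median 67.2 CPM, against 419 CPM for the least variable 10), and a median of 68.2% of their end stretches was shared, against 62.6%; 2 of the most variable (Rps23 and Rps16) and 3 of the least variable share none. These sets were chosen by their spread in the same livers and are a description. The part of library quality in this pattern was not tested.

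**Figure D5:**
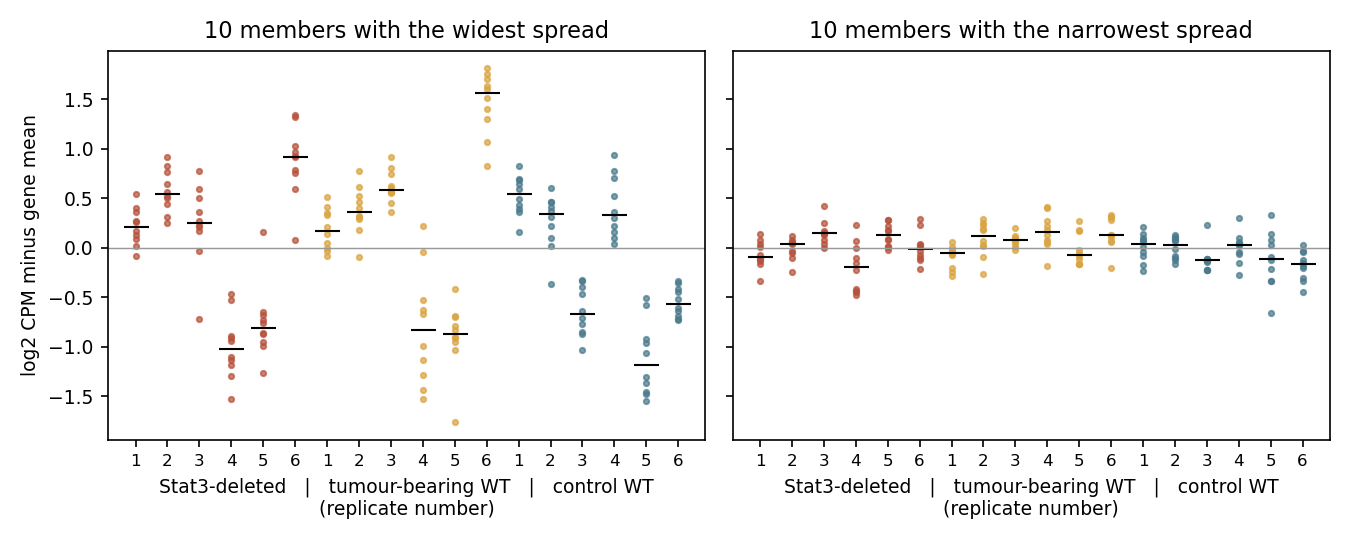
Log2 CPM minus the gene's mean over 18 livers, for the 10 members with the widest (left) and the 10 with the narrowest spread (right), by liver and replicate number, with group colours and black bars for the median of the 10 genes. On the left, the medians of livers 4 and 5 of both tumour-bearing groups lie below 0 and those of liver 6 of both lie above it, so that the spread within a group exceeds the difference between groups.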

How the data were processed

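Counts per gene symbol were taken as deposited by the authors, raw and not normalized, from 3′ tag libraries (QuantSeq FWD) of 18 mouse livers. Reads were aligned with STAR to mm10, per the submitters' processing notes; the sources used here do not state its version, the counter, the annotation, the strand setting or the handling of multi-mapping reads. From the 24421 rows, 27 whose symbols had become dates were left out (0.103 to 0.166% of the counts), and 0 columns lacked a sample. Members and lists were chosen with earlier results of these data known.

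In R 4.3.3, edgeR 4.0.16 (TMM, filterByExpr, glmQLFit and glmQLFTest) was fitted to all 18 libraries with 1 coefficient per group and 15 residual degrees of freedom, and two-sided p-values were adjusted by Benjamini-Hochberg over 11218 genes, with a threshold of 0.05. CPM use TMM-scaled library sizes, SE is that of the log2 fold change, and the log2 offset in plots is 0.5. The labels do not say that replicates come from separate animals, so p-values measure the spread between these samples. The common biological coefficient of variation was 0.281, and 2 libraries correlated at most at 0.974, so none was counted as a repeat. Alternatives were library totals, RLE, scaling to the members' sum, DESeq2 1.42.0, limma voom 3.58.1, other filters (none, or 1 CPM in 6 libraries), a minimum of 1000 counts for members (which all 74 exceed, so it could change nothing), blocks and leaving out each library. The limma voom fits used quality weights, which let libraries count unequally. The procedure was tested on simulated data. Members given with values were the 10 with the smallest unadjusted p in each comparison, the 5 highest and 5 lowest by level, paralogue pairs and landmark genes, and up to 4 genes with the smallest p from each other list; members named for their spread, for groups that do not overlap or for a shared end were added after their values were seen. Some genes that this rule names are not reported here. Other steps used Python 3.11.15, pandas 2.3.3 and, for plots, matplotlib 3.10.9.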

Additional observations from a re-analysis of the deposited data

Results flagged for a closer look

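Among 30 of the members given with values, in 8 cases 1 of 6 livers of a group stood apart from the other 5 by a gap beyond Dixon's 95% critical value, which chance gives in about 1 in 20 groups. In Stat3-deleted livers these were a low Rps15a liver (242.9 CPM) and high livers for Rpl27a (211.4 CPM), Rps29 (1080 CPM), Rplp2 (549.8 CPM) and Rpl35 (38.7 CPM). In tumour-bearing WT livers they were high livers for Rpl10a (43.6 CPM) and Rps7 (470.1 CPM). In control livers it was a low Rps15a liver (190.1 CPM). Over all 74 members this held in 25 of 222 groups of 6 livers (11.3%), and in 13 of the 25 the liver was tumour-bearing WT replicate 6, on the high side. Members share the livers, so these cases are not independent.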

How the results depend on the processing

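In tumour-bearing WT against control livers the members' median of 0.30 was 0.02 when scaled to the members' sum; the cause is the scaling itself, which sets the family to a constant. It was 0.09 by library totals, 0.20 with limma voom, and 0.12 and 0.49 within the lower and the higher run of label numbers. Leaving out 1 library gave medians of 0.14 to 0.38 and 0 to 2 calls (2 without tumour-bearing WT replicate 1); the replicate block gave 0.27 and 0 calls, and the label-number run as a block 0.29. In Stat3-deleted against tumour-bearing WT livers the median of -0.10 was -0.02 by library totals and -0.02 by the members' sum, limma voom gave -0.03 and called 1 member, and leaving out 1 library gave 0 to 1 calls and medians of -0.17 to 0.01; the replicate block gave -0.10 and 0 calls. In Stat3-deleted against control livers the 1 call became 0 by library totals, by the members' sum and without a filter, 7 with the groups alone, 6 with DESeq2, 10 with limma voom and 0 to 5 when 1 library was left out, with medians of 0.13 to 0.24; the median of 0.19 was 0.07 by library totals, 0 by the members' sum and 0.17 with limma voom, and the replicate block gave 0.15 and 1 call. Scaling to the members' sum sets the family to a constant in all 3 comparisons. The cause of the other changes was not tested. All-gene calls moved too: 252 in the first comparison became 128 with the groups alone and 462 with DESeq2. The shares without the 20 most abundant genes were 3.59% in Stat3-deleted, 3.63% in tumour-bearing WT and 3.28% in control livers, by construction larger. No member named changed sign past the threshold. Same-numbered livers of different groups correlated at -0.13 to 0.31. No values for differently numbered livers were set beside these, so they cannot tell whether the numbers pair the livers. Low totals, such as 1589 for Rpl15, and shared transcript ends limit what can be said of single members.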

Other observations

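Rows related to the members, chosen after their values were seen, gave the following values. Rn45s, the row of the 45S precursor of ribosomal RNA, took 3.6% of all counts although the libraries are primed on poly(A). Its share was 2.18 to 3.76% in livers of Stat3-deleted mice, 2.71 to 4.57% for tumour-bearing WT and 2.86 to 5.54% for control livers, with a log2 fold change of -0.57 (SE 0.19, edgeR adjusted p = 0.0792) in Stat3-deleted against control livers, which misses the threshold.

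Of 7 rows with ribosomal protein pseudogene names 3 had 0 counts, and none of the 4 tested was called by edgeR or had an unadjusted p under 0.05. Rpl14-ps1 had 232.9 ± 39.1 CPM in Stat3-deleted, 244.3 ± 44.5 CPM in tumour-bearing WT and 249.4 ± 85.1 CPM in control livers, levels close to those of Rpl14 itself (202.9, 245.7 and 243.1 CPM). Rpl37rt, a retrotransposed copy of Rpl37, had 122.5 ± 30 CPM, 136.2 ± 22 CPM and 151.5 ± 33.5 CPM in the same order of groups (SD, n = 6 each); its group means stand in the opposite order to those of Rpl37, and none of its comparisons passed the test.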
